A study of Mus musculus with 12 samples.

Results

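The 9 genes Insr, Irs1, Irs2, Pik3r1, Akt2, Tbc1d4, Slc2a4, Trarg1 and Slc2a1 encode steps of insulin signalling and glucose transport in fat cells. They were taken by name as a pathway list, out of 35523 genes quantified, and the estimated reads of all annotated transcripts of a gene were summed. The list was chosen with earlier results of these data known. Insulin binds its receptor at the cell surface, the receptor phosphorylates the IRS docking proteins, and these recruit phosphatidylinositol 3-kinase (PI3K), whose lipid product leads to activation of the kinase Akt. In adipocytes Akt2 phosphorylates the Rab GTPase-activating protein encoded by Tbc1d4, which lets vesicles that hold the glucose carrier GLUT4 (Slc2a4) reach the plasma membrane, whereas GLUT1 (Slc2a1) carries glucose into most cell types without insulin. GLUT4 and the vesicle protein encoded by Trarg1 are known from mature adipocytes, and the gain of GLUT4 is a textbook feature of adipocyte differentiation.

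The study asked which mRNAs sat on heavily loaded ribosomes when fat precursors of obese mice differentiated with rosiglitazone (Rosi), a drug that activates PPARγ, the nuclear receptor that drives adipocyte differentiation. Stromal vascular fraction (SVF) cells, which are the cells left after mature adipocytes have been floated off digested fat, came from epididymal adipose tissue (eWAT) of male, 12-week-old Lepob/Lepob mice, a strain without functional leptin. Total RNA (input) and RNA of pooled sucrose gradient fractions that carry several ribosomes per mRNA (polysome) were sequenced as poly(A) libraries. Each fraction was taken with and without Rosi, which gives 4 groups with 3 libraries deposited for each.

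All groups had the Lepob/Lepob genotype and the same adipogenic mixture for 2 days, made of IBMX at 0.5 mM, dexamethasone at 1 µM and insulin at 5 µg/mL, followed by insulin alone for 2 days. Rosi at 1 µM or the DMSO vehicle (Veh) was present throughout, and all cells were harvested at day 4, 1 h after fresh medium, with cycloheximide at 100 µg/mL in the last 5 min. No group lacked insulin and none was lean, so neither the effect of insulin nor that of obesity was measured. The labels call the libraries biological replicates, and whether each came from 1 mouse or a pool of mice is not given in the sources used here.

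In input Veh, the files of replicates 2 and 3 were identical at all 117135 transcripts, so they entered as 1 library and that group has n = 2 where the others have n = 3. The 11 libraries held 17446517 to 24016101 estimated reads. The first principal component (50.2% of the variance) separated input from polysome and the next (12.5%) separated Rosi from Veh, and polysome Veh replicate 1 (-53.1) and polysome Rosi replicate 3 (-42.5) lay furthest out on the polysome side. The cultures were mixed: the summed level of 12 macrophage markers was 13100 to 22400 on the counts-per-million scale (CPM) over the libraries, against 307 to 1850 CPM for 12 adipocyte markers. Smooth muscle markers summed to 7530 to 11700 CPM, progenitor markers to 496 to 735 CPM, mesothelial ones to 39.1 to 64.8 CPM, endothelial ones to 14.9 to 26.8 CPM and skeletal muscle ones to 9.42 to 26.3 CPM, while the lymphocyte and erythroid lists each stayed at or under 0.267 CPM. Of 5 markers of epididymal epithelium 4 were at 0 in every group, and the list summed to 72.2 to 256 CPM.

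Rosi changed 1 of the 9 genes past the test, and it did so in both fractions, where 1.34% of all genes were called in input and 0.655% in polysome. Trarg1, a membrane protein of GLUT4 vesicles, rose 10.9-fold in input and 12.2-fold in polysome. Slc2a4 itself was at the limit of detection without Rosi and stayed low with it. The receptor, both docking proteins, the PI3K subunit, Akt2, Tbc1d4 and Slc2a1 did not pass the test between Rosi and Veh in either fraction. Between fractions, Slc2a1, Akt2 and Irs2 were lower and Pik3r1 was higher in polysome than in input at an adjusted p under 0.05 with both treatments, each by less than 1 log2 unit, the threshold used here for a call between fractions. By adjusted p alone 49.3% of all genes passed in Veh and 55.1% in Rosi, so that 4 of 9 was near the share of all genes.

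**Figure D1:**
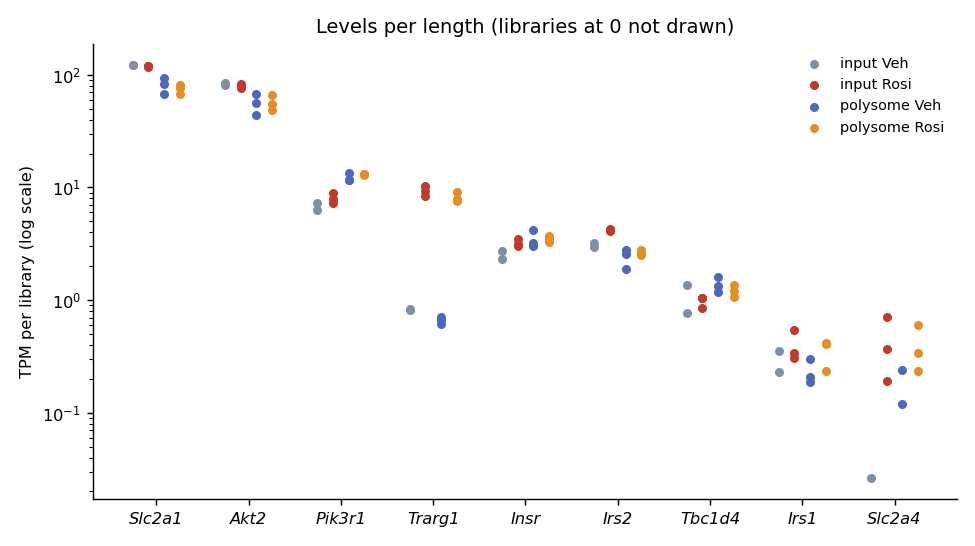
Level of each gene on the transcripts-per-million scale (TPM, vertical axis, log scale) in each of the 11 libraries, one point per library, coloured by group, with genes ordered by their mean TPM; libraries in which a gene was at 0 are not drawn. Slc2a1 and Akt2 lie highest in all 4 groups, and Trarg1 is the gene that shifts most between Veh and Rosi among those detected in every library.

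Per length, in TPM as deposited (transcripts-per-million, which allows for transcript length), the mean over 11 libraries was 97.4 for Slc2a1, 67.6 for Akt2, 10.3 for Pik3r1, 5.13 for Trarg1, 3.23 for Insr, 3.09 for Irs2, 1.16 for Tbc1d4, 0.32 for Irs1 and 0.258 for Slc2a4. Of the genes tested, 88.6% had a lower mean TPM than Slc2a1 and 84.3% a lower one than Akt2, whereas only 5.08% lay below Irs1 and 3.89% below Slc2a4. In input Veh the TPM ranges of Slc2a1 (122 to 123), Akt2 (80.7 to 85.1), Pik3r1 (6.32 to 7.24), Irs2 (2.95 to 3.24) and Insr (2.30 to 2.74) did not overlap, and those of Tbc1d4 (0.772 to 1.35) and Trarg1 (0.813 to 0.841) did. In input Rosi, Trarg1 (8.38 to 10.4 TPM) overlapped Pik3r1 (7.28 to 8.87 TPM), and Slc2a4 (0.192 to 0.708 TPM) overlapped Irs1 (0.309 to 0.542 TPM). The insulin-independent carrier stood far above the other genes of glucose entry on this list, with a TPM ratio of Slc2a1 to Trarg1 of 146 to 150 in input Veh and of 11.2 to 14.3 in input Rosi. These are levels of the mixed cultures, and which cell types held each mRNA was not measured.

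**Figure D2:**
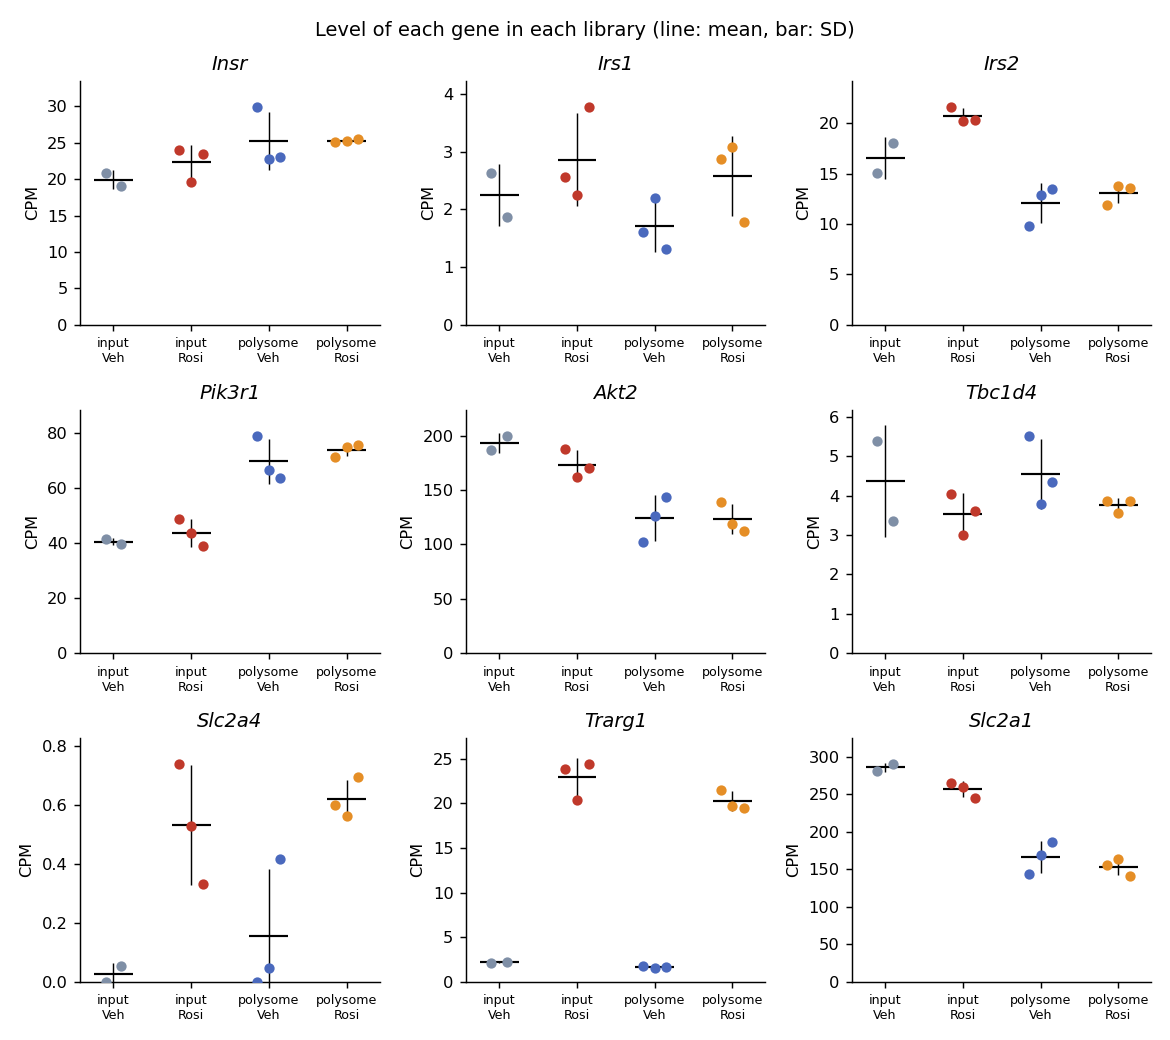
CPM of each of the 9 genes (vertical axis from 0, one panel per gene) in each library of the 4 groups; points are libraries, the horizontal line is the group mean and the vertical bar is 1 SD. Trarg1 separates Rosi from Veh in both fractions, whereas Slc2a1, Akt2, Irs2 and Pik3r1 separate input from polysome.

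Insr, the insulin receptor (chr8:3122061-3279617, minus strand, GRCm38 as for all positions here), was measured at 20.9 and 19 CPM in input Veh and at 24, 19.6 and 23.4 CPM in input Rosi. In polysome it was at 29.9, 22.8 and 23.1 CPM with Veh and at 25.1, 25.2 and 25.5 CPM with Rosi. The Rosi and Veh libraries overlapped in both fractions. The log2 fold change of Rosi over Veh was 0.23 ± 0.125 (SE) in input (adjusted p = 0.355) and -0.01 ± 0.129 in polysome (adjusted p = 1). Every polysome library lay above every input library of the same treatment, with a log2 difference of polysome over input of 0.34 ± 0.139 in Veh (adjusted p = 0.0511) and 0.18 ± 0.121 in Rosi (adjusted p = 0.229), and neither passed the test. In Veh the adjusted p was under the threshold of 0.05 in 7 of 20 alternatives of processing. The transcript Insr-201 took 99.5% of the reads of the gene.

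The genes of the docking proteins, Irs1 (chr1:82233101-82291416, minus strand) and Irs2 (chr8:10984681-11008458, minus strand), differed in level, with a median TPM ratio of Irs2 to Irs1 of 11.3 in input Veh, 12.5 in input Rosi, 9.08 in polysome Veh and 6.61 in polysome Rosi. Irs2 was at 15.1 and 18 CPM in input Veh and at 21.6, 20.2 and 20.3 CPM in input Rosi, so that all Rosi libraries lay above both Veh libraries. Its log2 fold change there was 0.39 ± 0.121, which did not pass the test (adjusted p = 0.137). Among 15 alternatives of processing it passed only when the duplicated input Veh library was counted again (adjusted p = 0.0461). In polysome Irs2 was at 9.84, 12.9 and 13.5 CPM with Veh and at 11.9, 13.8 and 13.6 CPM with Rosi, which overlapped (log2 fold change 0.11 ± 0.152, adjusted p = 1).

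Irs1 was at 2.63 and 1.87 CPM in input Veh, at 2.56, 2.24 and 3.77 CPM in input Rosi, at 1.61, 2.2 and 1.31 CPM in polysome Veh and at 2.87, 3.08 and 1.78 CPM in polysome Rosi. Its libraries overlapped between all groups compared, and its log2 fold changes of Rosi over Veh were 0.43 ± 0.314 in input (adjusted p = 0.498) and 0.58 ± 0.299 in polysome (adjusted p = 1). With 25 to 91 reads per library these values allow a wide range of changes. The exons of Irs1 overlap 2822 bases of the opposite-strand gene Gm9747, which was given 25.1 to 97.8 reads per library, and since the strand of the library kit is not stated, reads of the pair cannot be told apart there.

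Pik3r1 (chr13:101680563-101768217, minus strand), which encodes regulatory subunits of PI3K, was at 41.4 and 39.7 CPM in input Veh and at 48.8, 43.5 and 38.8 CPM in input Rosi. In polysome it was at 79, 66.4 and 63.5 CPM with Veh and at 71.2, 74.8 and 75.5 CPM with Rosi. All polysome libraries lay above all input libraries, while Rosi and Veh overlapped in each fraction. The log2 fold change of Rosi over Veh was 0.17 ± 0.108 in input (adjusted p = 0.423) and 0.07 ± 0.113 in polysome (adjusted p = 1).

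The gene has a start site for the long regulatory subunit and, inside the gene, another for a short one. The long transcript Pik3r1-202 took 99.7% of the reads over all libraries, and the short Pik3r1-201 was at 0 in all 3 libraries of polysome Veh and at 0.819 CPM or less elsewhere. These transcripts also differ in their 3′ untranslated region, of 4320 bases in Pik3r1-202 and 1219 in Pik3r1-201. Which bases the reads covered was not measured here, so the use of each start was not measured either. The RefSeq windows (GRCm38.p6, minus strand, 250 bases before to 50 after the start) of the long and of the short start are shown because reads were assigned so unevenly between the transcripts. The first lies at chr13:101768168-101768467 and the other at chr13:101692581-101692880. Capitals mark matches, on either strand, to the GC box GGGCGG, to CCAAT or to TATAAA, and a DR1 repeat, to which PPARγ binds with RXR, was searched as 2 copies of AGGTCA with 1 base between them.
Pik3r1 long start: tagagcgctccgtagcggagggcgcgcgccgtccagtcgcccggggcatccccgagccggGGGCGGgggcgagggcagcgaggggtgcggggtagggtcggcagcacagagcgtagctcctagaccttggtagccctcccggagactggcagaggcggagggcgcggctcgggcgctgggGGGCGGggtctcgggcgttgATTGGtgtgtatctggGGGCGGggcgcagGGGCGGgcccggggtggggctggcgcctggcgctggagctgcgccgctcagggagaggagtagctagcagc
Pik3r1 short start: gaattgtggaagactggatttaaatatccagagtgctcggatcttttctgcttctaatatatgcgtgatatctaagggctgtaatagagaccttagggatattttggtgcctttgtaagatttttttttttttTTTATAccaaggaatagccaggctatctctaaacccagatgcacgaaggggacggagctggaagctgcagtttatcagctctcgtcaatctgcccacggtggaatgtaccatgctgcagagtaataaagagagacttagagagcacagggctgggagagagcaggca
The window of the long start held 4 matches to GGGCGG and 1 to CCAAT, and that of the short start held 1 to TATAAA. Among 32851 promoter windows of the same length, 35.7% held GGGCGG, 37.4% CCAAT, 13.6% TATAAA and 0.0396% the repeat. The repeat was found in 0 of the 10 windows of the 6 genes on the list that had one. With so low a share over all windows, that count carries no information on these genes. Slc2a4, Trarg1 and Insr had no window, so the repeat was not searched in them. All these matches are descriptions of letters, not binding sites.

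Akt2 (chr7:27591552-27640826, plus strand), the Akt kinase of the insulin pathway in fat and muscle, was at 187 and 200 CPM in input Veh, at 188, 162 and 170 CPM in input Rosi, at 102, 126 and 144 CPM in polysome Veh and at 139, 119 and 112 CPM in polysome Rosi. Input libraries lay above polysome libraries with either treatment, and Rosi and Veh overlapped in each fraction. The log2 fold change of Rosi over Veh was -0.09 ± 0.0900 in input (adjusted p = 0.613) and -0.02 ± 0.134 in polysome (adjusted p = 1). The transcripts Akt2-214, Akt2-201 and Akt2-205 took 47.2, 40.8 and 11.2% of the reads, and all carry a coding sequence of 1443 bases.

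Tbc1d4 (chr14:101442360-101609191, minus strand), the Rab GTPase-activating protein that Akt2 switches off, was at 5.38 and 3.36 CPM in input Veh, at 4.04, 2.99 and 3.6 CPM in input Rosi, at 5.52, 3.78 and 4.34 CPM in polysome Veh and at 3.85, 3.56 and 3.86 CPM in polysome Rosi. Summed over the transcripts of the gene, no pair of groups was separate. The log2 fold change of Rosi over Veh was -0.23 ± 0.255 in input (adjusted p = 0.669) and -0.28 ± 0.204 in polysome (adjusted p = 1).

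Slc2a4 (chr11:69942539-69948188, minus strand) was nearly absent. Input libraries held 0 and 1 reads of the gene with Veh and 15, 12 and 8 reads with Rosi, and polysome libraries held 0, 1 and 8 reads with Veh and 14, 13 and 14 reads with Rosi. Summed over the transcripts of the gene, every Rosi library lay above every Veh library in both fractions, with 0.331 to 0.739 CPM in input Rosi and 0.564 to 0.694 CPM in polysome Rosi. The ratio of the pooled CPM of Rosi over Veh was 18.3 in input (35 against 1 read, exact 95% interval 3.08 to 743) and 4.09 in polysome (41 against 9 reads, 1.96 to 9.56). These intervals cover counting error only. By transcript the polysome groups overlapped: the coding Slc2a4-201 was given 14, 0 and 12.2 reads with Rosi and 0, 0 and 8 reads with Veh, and all 13 reads of polysome Rosi replicate 2 went to Slc2a4-207, annotated as a retained intron. The fitted log2 fold changes were 4.01 ± 1.07 in input (adjusted p = 0.0922) and 1.98 ± 0.744 in polysome (adjusted p = 0.855), and neither passed the test. The gene passed the filter on low counts only through libraries in which it was highest, and with no such filter it passed the test in input (adjusted p = 0.0293). Of the 9 reads in polysome Veh 8 came from replicate 3, and without that library the polysome log2 fold change was 4.35 (adjusted p = 0.0584).

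Trarg1 (chr11:76679808-76698664, plus strand), whose product sits in GLUT4 vesicles and takes part in their traffic, was at 2.14 and 2.24 CPM in input Veh and at 23.9, 20.4 and 24.4 CPM in input Rosi. In polysome it was at 1.72, 1.54 and 1.67 CPM with Veh and at 21.5, 19.7 and 19.5 CPM with Rosi. The lowest Rosi library was above the highest Veh library in both fractions by a wide margin. Trarg1 rose by 3.45 ± 0.169 on the log2 scale in input (adjusted p = 9.62e-08) and by 3.61 ± 0.159 in polysome (adjusted p = 4.81e-08), which made 1 of 9 genes in each fraction. Of all genes tested 1.34% were called in input (1.13% higher and 0.206% lower) and 0.655% in polysome (0.633% higher and 0.0223% lower). Because the list was chosen with earlier results of these data known, 1 of 9 beside these shares does not test the list. Without input Rosi replicate 1 the calls over all genes in input were 701 higher and 879 lower, in place of 154 and 28. The call held under all 15 alternatives of processing in each fraction, with a log2 fold change of 2.50 to 3.52 in input and of 2.47 to 3.64 in polysome. The gene has 1 annotated transcript, of 3302 bases, with a coding sequence of only 519 bases and a 3′ UTR of 2431 bases, which was longer than that of 80.4% of the genes tested.

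Markers of adipocytes moved with Trarg1. The summed level of the 12 adipocyte markers was 307 to 365 CPM in input Veh, 1010 to 1180 CPM in input Rosi, 327 to 366 CPM in polysome Veh and 1570 to 1850 CPM in polysome Rosi. Of 11 adipocyte markers tested 8 were called higher with Rosi in input and 9 in polysome, and Lep was at 0 in all groups but polysome Rosi, where it had 2 reads. The summed macrophage markers were 18200 to 20900 CPM in input Veh and 13100 to 15400 CPM in input Rosi, and in polysome they overlapped (17500 to 22400 CPM with Veh and 15700 to 19700 CPM with Rosi). In such mixed cultures more cells of a type and more RNA per cell cannot be told apart, and the part of either in the Trarg1 result was not tested.

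Slc2a1, the basal glucose carrier, was at 281 and 290 CPM in input Veh and at 265, 260 and 245 CPM in input Rosi, with both Veh libraries above all Rosi libraries. In polysome it was at 144, 169 and 186 CPM with Veh and at 155, 164 and 141 CPM with Rosi, which overlapped. The log2 fold change of Rosi over Veh was -0.08 ± 0.0827 in input (adjusted p = 0.623) and -0.13 ± 0.117 in polysome (adjusted p = 1), and neither passed the test. The 4 genes whose input groups did not overlap (Slc2a4, Trarg1 and Irs2 higher and Slc2a1 lower with Rosi) stand against 36.7% of all genes tested (12.8% higher and 23.9% lower), where input Veh had only 2 libraries. In polysome the groups of Slc2a4 and Trarg1 did not overlap, against 8.96% of all genes tested (4.58% higher and 4.38% lower).

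**Figure D3:**
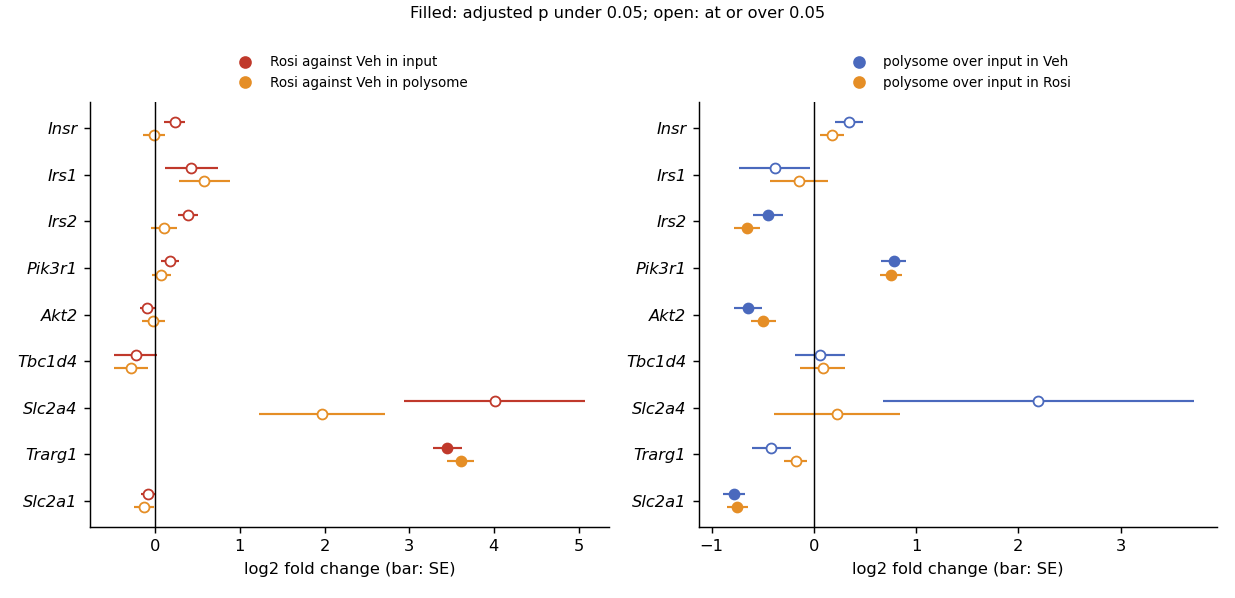
Log2 fold change (horizontal axis) of each gene for Rosi over Veh in each fraction (left) and for polysome over input with each treatment (right); bars are standard errors and filled points have an adjusted p under 0.05. On the left only Trarg1 is filled, and on the right Slc2a1, Akt2, Irs2 and Pik3r1 are filled with both treatments, within 1 log2 unit of 0.

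In transcript length, which the choice of genes did not use, most of the members lay above the typical tested gene. The main transcripts of Insr (9355 bases), Irs1 (9144), Pik3r1 (7113) and Irs2 (6323) were longer than those of at least 90.2% of 13243 genes, whose median was 2908 bases. Those of Akt2 (2865 bases) and Slc2a4 (2524 bases) were shorter than that median. Of the long ones, Pik3r1 was higher and Irs2 lower in polysome than in input.

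The comparison of polysome with input asked how the level of each gene in polysomal RNA stood against its level in total RNA. The scaling of the libraries puts the typical gene near 0 (median log2 difference 0.019 in Veh and 0.001 in Rosi over all genes). Each difference is therefore relative to the typical gene and does not give the share of an mRNA that sat on ribosomes. With the threshold of 1 log2 unit, 0 of the 9 genes were called with either treatment, against 9.67% of all genes in Veh (2.99% higher and 6.68% lower) and 11.3% in Rosi (6.49% higher and 4.86% lower). By adjusted p alone 4 of the 9 genes passed with each treatment, against 49.3% of all genes in Veh and 55.1% in Rosi, so that the share on the list was near that of all genes. Slc2a1 was lower in polysome, with a log2 difference of -0.78 ± 0.111 in Veh (adjusted p = 4.49e-05) and of -0.75 ± 0.101 in Rosi (adjusted p = 1.9e-05). Akt2 was lower, with -0.64 ± 0.136 in Veh (adjusted p = 0.00114) and -0.49 ± 0.123 in Rosi (adjusted p = 0.00318).

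Irs2 was lower in polysome, with a log2 difference of -0.45 ± 0.146 in Veh (adjusted p = 0.0181) and of -0.66 ± 0.129 in Rosi (adjusted p = 0.000496). In Veh this rested on input Veh replicate 2, without which the difference was -0.32 (adjusted p = 0.198), and it was also lost with limma on TPM (-0.27, adjusted p = 0.159). Pik3r1 was higher in polysome by 0.78 ± 0.124 in Veh (adjusted p = 0.000114) and by 0.76 ± 0.108 in Rosi (adjusted p = 3.13e-05). Without polysome Veh replicate 1, the library furthest out on the first component, the differences in Veh were -0.70 for Slc2a1, -0.53 for Akt2, -0.33 for Irs2 (adjusted p = 0.0494) and 0.67 for Pik3r1. Trarg1, although so much higher with Rosi, had a difference of polysome over input of -0.42 ± 0.192 in Veh (adjusted p = 0.103) and -0.18 ± 0.109 in Rosi (adjusted p = 0.178). In Veh the groups of Insr, Pik3r1, Trarg1, Slc2a1, Irs2 and Akt2 did not overlap between the fractions (64% of all genes, 32.5% higher and 31.5% lower) and in Rosi those of Insr, Pik3r1, Slc2a1, Irs2 and Akt2 (65.5% of all genes, 33.7% higher and 31.7% lower).

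The interaction of fraction and treatment tested whether Rosi moved polysomal RNA otherwise than total RNA. The study used this interaction, with DESeq2 on single transcripts, as its measure of changed translation efficiency, and reported transcripts changed in both directions. Here the reads of a gene were summed, so the counts given next are not comparable with those of the study. By edgeR 0 of the 9 genes were called, against 0% of 14042 genes tested, of which 961 had an unadjusted p under the threshold and DESeq2 called 1. The interaction of Trarg1 was 0.24 ± 0.220 (adjusted p = 0.815) and that of Slc2a4 -1.97 ± 1.66 (adjusted p = 0.806). The remaining 7 genes had interactions of -0.20 to 0.24, with standard errors of 0.151 to 0.448, so that differences of that order could not be resolved.

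The fractions also differed in which Slc2a1 transcript the reads were assigned to. Slc2a1-201 (chr4:119108711-119137983, plus strand, 10 exons, GRCm38) encodes the carrier. Slc2a1-204 is annotated as a target of nonsense-mediated decay, the pathway that removes mRNAs with an early stop codon, and lacks exon 5. The skip brings a stop codon into frame after 173 codons. Slc2a1-204 took 18.3 and 26% of the reads of the gene in input Veh and 22.9, 19.3 and 18% in input Rosi. It took 39.9, 39.9 and 36.6% in polysome Veh and 27.1, 35.7 and 42.6% in polysome Rosi, so that every polysome library lay above every input library. In CPM, Slc2a1-201 was at 222 ± 10.6 (SD, n = 2) in input Veh and 205 ± 4.58 (n = 3) in input Rosi, against 102 ± 15.9 (n = 3) in polysome Veh and 99.6 ± 16.8 (n = 3) in polysome Rosi. Slc2a1-204 was at 63.4 ± 17, 51.7 ± 8.41, 64.2 ± 6.02 and 53.3 ± 10.0 CPM in the same 4 groups, which overlapped throughout. The log2 differences of Slc2a1 between fractions given above are for the summed transcripts and do not describe Slc2a1-201 alone. No test was run on transcripts. Besides the 163 bases of exon 5, Slc2a1-201 holds 203 bases before the start and 653 bases after the end of Slc2a1-204, and which of these the reads covered was not measured here.

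**Figure D4:**
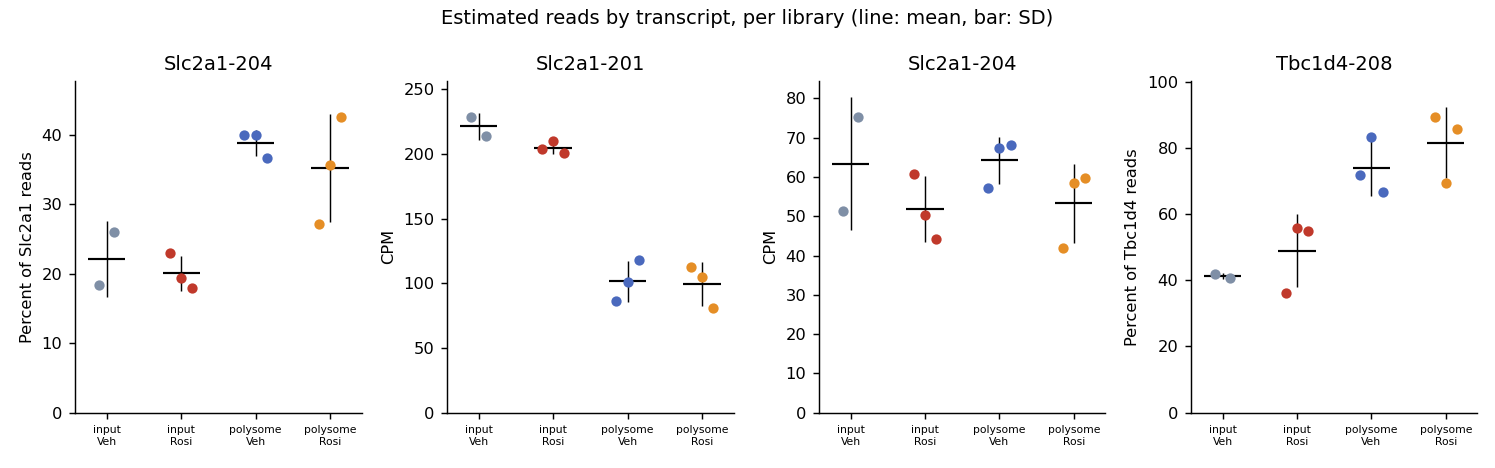
Estimated reads by transcript in each library of the 4 groups: the share of Slc2a1 reads on Slc2a1-204, the CPM of Slc2a1-201 and of Slc2a1-204, and the share of Tbc1d4 reads on Tbc1d4-208; points are libraries, lines are means and bars are 1 SD. The polysome libraries lie above the input libraries in both share panels and below them for Slc2a1-201, while Slc2a1-204 overlaps in CPM.

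Reads of Tbc1d4 were likewise divided unequally between fractions. Tbc1d4-209 (chr14:101442360-101609033, minus strand) is the coding transcript that was given the most reads. Tbc1d4-208 (chr14:101442368-101463223) is a fragment of its 3′ part, annotated as a retained intron without coding sequence, which shares 3684 of its 3823 bases with Tbc1d4-209. The share of Tbc1d4-208 was 42.0 and 40.7% in input Veh, 36.2, 55.9 and 54.9% in input Rosi, 71.9, 83.4 and 66.8% in polysome Veh and 89.5, 69.3 and 85.8% in polysome Rosi. All polysome libraries again lay above all input libraries. In CPM, Tbc1d4-209 was at 1.99 to 3.12 in input Veh, 1.32 to 1.63 in input Rosi, 0.628 to 1.55 in polysome Veh and 0 to 1.09 in polysome Rosi. Input Veh thus lay above input Rosi and polysome Veh, and input Rosi above polysome Rosi. Tbc1d4-208 was at 1.37 to 2.26, 1.46 to 1.98, 2.9 to 3.97 and 2.47 to 3.45 CPM in the same order. With 63 to 106 reads per library for the whole gene, Tbc1d4-209 was given 0 reads in polysome Rosi replicate 1, and the split of so few reads is an estimate of the quantification program. Tbc1d4-209 holds 2799 bases that Tbc1d4-208 lacks, 2791 of them before its start.

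**Figure D5:**
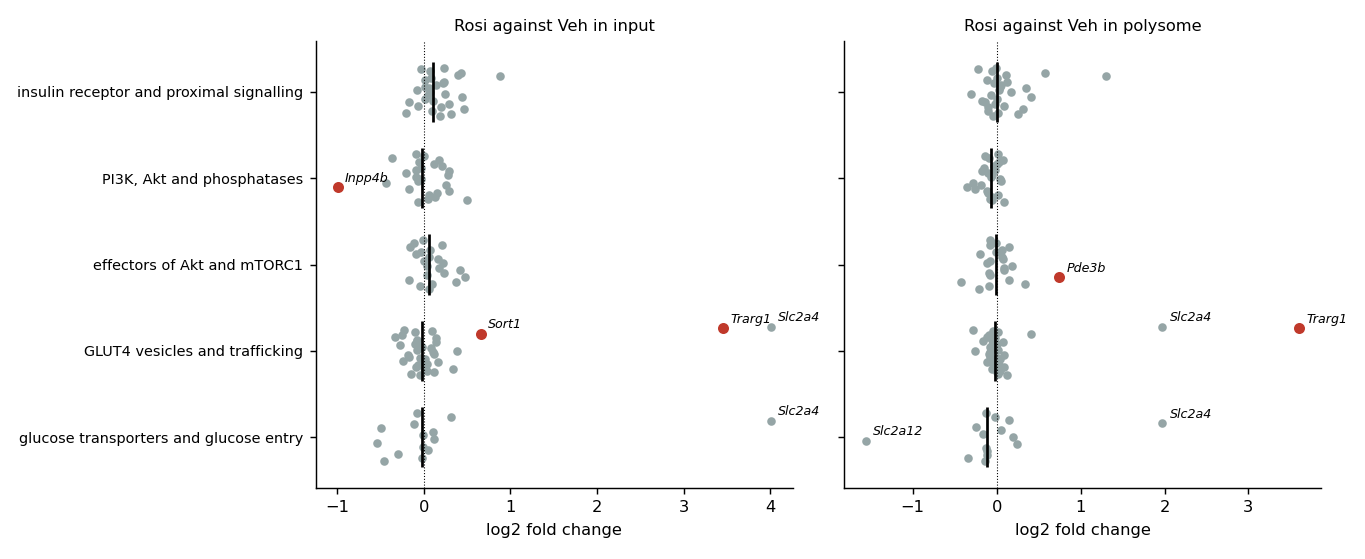
Log2 fold change of Rosi over Veh (horizontal axis) for every tested gene of the 5 pathway lists in input (left) and polysome (right); each point is a gene, red points were called and the black line is the median of the list. The medians lie between -0.11 and 0.10, and the called genes are Trarg1, Sort1 and Inpp4b in input and Trarg1 and Pde3b in polysome.

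Few genes of the wider pathway were called with Rosi, beside 1.34% of all genes in input and 0.655% in polysome. Of 29 tested genes of the insulin receptor and its proximal signalling 0 were called in either fraction, with a median log2 fold change of 0.10 in input and 0.01 in polysome, against 0.01 and -0.01 for all genes tested. In input 24 of these 29 had a positive log2 fold change, against 7055 of 13603 genes in all. Of 26 genes of PI3K, Akt and their phosphatases 1 was called lower in input and 0 in polysome (medians -0.02 and -0.06). Of 22 effectors of Akt and mTORC1 0 were called in input and 1 was called higher in polysome (medians 0.06 and -0.01). Of 35 genes of GLUT4 vesicles and their traffic 2 were called higher in input and 1 in polysome, Trarg1 among them in both (medians -0.02 and -0.02), and 10 of the 35 had an unadjusted p under 0.05 in input, against 2312 of 13603 genes in all. Of the glucose transporters and hexokinases, which include Slc2a1 and Slc2a4, 0 of 14 were called in input and 0 of 15 in polysome (medians -0.02 and -0.11).

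Sort1, which encodes the sorting receptor sortilin of GLUT4 vesicles, rose in input from 34.0 ± 2.42 CPM (n = 2) to 51.2 ± 4.05 CPM (n = 3), by 0.66 ± 0.106 on the log2 scale (adjusted p = 0.00795), whereas in polysome its log2 fold change was 0.41 ± 0.128 (adjusted p = 0.523). Inpp4b, a lipid phosphatase that acts on products of PI3K, fell in input from 12.0 ± 3.99 to 5.77 ± 1.07 CPM, with a log2 difference of -0.99 ± 0.215 (adjusted p = 0.0409), whereas in polysome its value was -0.35 ± 0.182 (adjusted p = 1). Pde3b, the cyclic AMP phosphodiesterase through which insulin restrains lipolysis, rose in polysome from 23.7 ± 4.78 to 40.1 ± 4.74 CPM, by 0.75 ± 0.152 on the log2 scale (adjusted p = 0.0467), and in input its value was 0.47 ± 0.144 (adjusted p = 0.13). Whether the fractions differ for these genes was tested by the interaction, which called 0 genes. These 3 calls were less firm than that of Trarg1. They held under 12 of 15 alternatives for Sort1, 9 of 15 for Inpp4b and 9 of 15 for Pde3b. Without input Veh replicate 2 the adjusted p was 0.133 for Sort1 and 0.483 for Inpp4b, without input Rosi replicate 2 or 3 it was 0.0641 or 0.0743 for Inpp4b, and for Pde3b it was 0.0629 to 0.308 without polysome Veh replicate 2 or 3 or any 1 of the polysome Rosi libraries.

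Between fractions the lists held more called genes. In Veh 1 of 29 genes of proximal signalling, 2 of 26 of the PI3K list, 4 of 22 effectors, 6 of 35 of the GLUT4 list and 2 of 16 transporters and hexokinases passed the threshold of 1 log2 unit, and in Rosi 1, 2, 3, 4 and 2 did, against 9.67 and 11.3% of all genes. The smallest p in Veh belonged to Ehd2, which shapes caveolae (-1.49 ± 0.119), the hexokinases Hk3 (-1.79 ± 0.146) and Hk1 (-1.77 ± 0.159), Lrp1, a receptor that travels in GLUT4 vesicles (-1.85 ± 0.152), Rheb, the GTPase that activates mTORC1 (1.10 ± 0.102), and Srebf1, a transcription factor of lipid synthesis (-1.28 ± 0.121). In Rosi they belonged to Rheb (1.18 ± 0.089), the adaptor Crk (1.09 ± 0.0886), the endosomal GTPase Rab5a (1.27 ± 0.105), Lrp1 (-1.61 ± 0.141), Ehd2 (-1.25 ± 0.109) and Hk3 (-1.40 ± 0.135). The adjusted p of each of these was 1.48e-06 or less. Both treatments were fitted together, and their differences of polysome over input share no libraries.

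The genes whose log2 CPM followed that of a member most closely over the 11 libraries are given as a description. Trarg1 was followed by Cidec (Pearson r = 0.997), Gpd1 (0.993), G0s2 (0.991), Acsl1 (0.988) and Hp (0.987), of which Cidec, Gpd1 and Acsl1 stand on the adipocyte marker list. Slc2a1 was followed by Nfkb2 (0.995), Lztr1 (0.994), Dnmt1 (0.994), Fbxo21 (0.992) and Map1a (0.992). Slc2a4, with its few reads, was followed by Rnf144a (0.931), Chst1 (0.922), Gm6161 (0.911), Acaa1b (0.908) and Sntb1 (0.908). Among the members, Slc2a1 went with Akt2 (r = 0.95) and Irs2 (0.83) and against Pik3r1 (-0.96) and Insr (-0.80), and Trarg1 went with Slc2a4 (0.83). The libraries form 4 groups, so these coefficients largely describe differences between groups, and the libraries share 1 set of scaling factors.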

How the data were processed

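Members and gene lists were chosen with earlier results of these data known. Per the labels and methods, raw data were converted with bcl2fastq 2.17 and checked with FastQC. Transcripts were then quantified by the authors with Salmon on mm10 and compared with DESeq2 (versions of these tools other than bcl2fastq not given in the sources used here). The deposited files hold, per transcript, an estimated count and a TPM. Libraries titled with the tissue name alone were taken as polysome. The protocols give 4 days of differentiation and the design text 3, and 4 was kept. Estimated counts of 115973 of 117135 transcripts were summed to genes with GENCODE M21 and rounded, and the other transcripts held 0.381 to 0.464% of reads.

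Genes kept by filterByExpr were TMM-scaled and tested two-sided by edgeR's quasi-likelihood method (edgeR 4.0.16, R 4.3.3), with Benjamini-Hochberg adjustment over all genes. Calls required an adjusted p below 0.05 together with a log2 fold change of more than 0.2 in size (Rosi against Veh, each fraction fitted alone) or of more than 1 in size (polysome over input and interaction, all 4 groups fitted). SE is the size of the log2 fold change over the root of F. Whether the replicates are separate animals is not given, so p-values reflect the spread between these libraries alone. CPM uses the scaled library sizes of the joint fit. Named were the 9 members, the called genes of the pathway lists up to 6 per comparison by smallest p, and the 5 genes most correlated (log2 CPM, prior count 2) with each of 3 members. Marker lists covered adipocytes, progenitors, macrophages, endothelium, smooth and skeletal muscle, mesothelium, epididymis, erythroid cells and lymphocytes. The fits were tested on simulated data with 200 changed genes. Alternatives were DESeq2 1.42.0, upper quartile and RLE factors, no filter or at least 10 counts, each library left out, the replicate block, all 12 libraries, 1 fit of all groups, no fold threshold, and limma 3.58.1 on log2(TPM + 1) of genes with TPM of at least 1 in 2 libraries.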

Additional observations from a re-analysis of the deposited data

How the results depend on the processing

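The number of members called was the same under every alternative for Rosi against Veh in polysome (1) and for the interaction (0). In input it was 1, and 2 with no count filter (Slc2a4 added) and 2 with all 12 libraries (Irs2 added). Without the fold threshold it was 4 between fractions in Veh and 4 in Rosi, against 0 with it.

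Members that changed sign were called in neither setting. With limma on TPM these were, in polysome, Insr (0.01) and Akt2 (0.02) and, for the interaction, Trarg1 (-0.04), Slc2a1 (-0.07) and Tbc1d4 (-0.06). With upper quartile factors they were the interactions of Slc2a1 (-0.04) and Tbc1d4 (-0.05). With 1 library left out, Rosi against Veh ranged from -0.54 to 0.15 for Tbc1d4 in input and in polysome from -0.07 to 0.13 for Insr, -0.02 to 0.19 for Irs2 and -0.14 to 0.10 for Akt2. Polysome over input ranged in Veh from -0.17 to 4.73 for Slc2a4 and -0.24 to 0.44 for Tbc1d4, and in Rosi from -0.03 to 0.52 for Slc2a4, -0.30 to 0.11 for Irs1 and -0.02 to 0.19 for Tbc1d4. The interaction ranged from -4.50 to 0.40 for Slc2a4, -0.06 to 0.12 for Slc2a1, -0.03 to 0.49 for Irs1, -0.35 to 0.33 for Tbc1d4 and -0.10 to 0.08 for Pik3r1. The cause was not tested.

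Per the paper, input was total RNA kept before fractionation, but which input and polysome libraries share a lysate is not stated. Same-numbered libraries had r = -0.233 to 0.114 in their deviations from group means (15 pairs of libraries). Differently numbered ones had r = -0.114 to 0.269 (30 pairs). These ranges pool pairs across fractions with pairs across treatments, so they do not settle a pairing, and the numbers were not taken as pairs. With the replicate block 1 member was called in input and 1 in polysome, and the interaction of Tbc1d4 was -0.07 with the block (duplicate numbered 3) and -0.10 with all 12 libraries. Over all genes, 182 were called in input (154 higher, 28 lower), against 385 with DESeq2 (207 higher, 178 lower), 907 with no filter, 1054 with all 12 libraries, 106 with the block (duplicate numbered 3), 77 with 1 fit of all groups, 57 with limma, 66 without input Veh replicate 2, 1580 (701 higher, 879 lower) without input Rosi replicate 1, and 111 when replicate 2 of that group was left out. In polysome 88 were called, against 189 with no filter, 37 with limma, and 179 or 55 without polysome Veh replicate 1 or 2. Between fractions limma called 844 in place of 1358 genes in Veh and 876 in place of 1593 in Rosi, and for the interaction no filter gave 57 and leaving out polysome Veh replicate 1 gave 9 in place of 0. Depth limits Slc2a4, Irs1 and Tbc1d4, at 0 to 15, 25 to 91 and 63 to 106 reads per library.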

Other observations

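Relatives of the 9 genes were present at very different levels per length. Akt1, the broadly expressed Akt kinase, was at 259 ± 4.00 TPM (SD, n = 2) in input Veh and 256 ± 11.3 TPM (n = 3) in input Rosi. Tbc1d1, the relative of Tbc1d4 known from skeletal muscle, was at 28.1 ± 0.749 and 30.9 ± 2.23 TPM, and the IGF-1 receptor gene Igf1r at 14.1 ± 1.50 and 15.5 ± 0.323 TPM. Pik3r2, which encodes another regulatory subunit of PI3K, was at 42.6 ± 2.48 and 42.8 ± 3.66 TPM.

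Among other glucose transporters, Slc2a8 was at 16 ± 0.544 TPM in input Veh and 18.6 ± 3.40 TPM in input Rosi, and Slc2a6, a transporter of lysosomes in macrophages, at 14.7 ± 0.799 and 10.7 ± 1.60 TPM. Slc2a9 (4.97 ± 0.653 and 4.58 ± 0.140 TPM), Slc2a10 (3.97 ± 0.773 and 4.42 ± 0.490 TPM) and Slc2a3 (1.59 ± 0.127 and 2.10 ± 0.459 TPM) were lower. None of these relatives was called between Rosi and Veh in input.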
